A study of Mus musculus with 3 samples.

Results

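The genes of cholesterol and fatty acid synthesis were examined in bulk RNA sequencing libraries of sorted mouse mammary cells. The set held 34 genes, chosen by symbol, of the 52661 gene identifiers in each table, and each of the 34 matched 1 row. It comprised 17 sterol synthesis enzymes, 5 regulators, 9 enzymes of fatty acid synthesis and desaturation, and 3 genes of cholesterol efflux and transport. The labels describe all 3 populations as PROCR+ (protein C receptor positive) mammary epithelial cells, taken from an EpCAM+ gate with high CD49f. The CD36+ library came from CD36+, PDPN- cells with the title state Cdh5+. The PDPN+ library came from CD36-, PDPN+ cells with the title state Cdh5-. The double-negative library came from CD36-, PDPN- cells, given as Cdh5+. The labels give no strain, age, number of mice or number of cells. Each population had 1 library, so no value has a replicate error, no test between populations was possible, and every ratio compares libraries.

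Cholesterol is built from acetyl-CoA through mevalonate, isoprenoid pyrophosphates, squalene and lanosterol, and fatty acids are built from the same acetyl-CoA by carboxylation, chain assembly, desaturation and elongation. Most enzymes of both routes are under the transcription factors SREBP-2 and SREBP-1, which SCAP escorts from the endoplasmic reticulum when sterols are low and INSIG proteins hold back when sterols are high. Oxysterols act through the liver X receptors, which induce the efflux transporters ABCA1 and ABCG1. In the mammary gland, lipid synthesis is best known from the milk-producing luminal cells, and endothelial cells are known for taking up lipid from blood.

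Promoter sequence was the only property examined that did not come from the libraries. Windows from 250 bases before to 50 bases after the RefSeq transcription start (build GRCm38.p6, the same sequence as mm10) were found for 27 members, with more than 1 window for 5 of them. Fdps, Fdft1, Sqle, Scd1, Scd2, Abcg1 and Stard4 had no entry. Letters were searched on both strands for the core of the sterol regulatory element (TCACNCCA, with N any base), the CCAAT box (CCAAT, bound by NF-Y, a partner of SREBP) and the E-box (CACGTG). The letters CCA end the sterol element core and can be shared with a CCAAT match. The CCAAT letters were in a window of 23 of the 27 members (85.2%), against 41.1% of the 27025 genes with a window. The sterol element core was in 3 members, Hmgcs1, Msmo1 and Srebf2 (11.1%, against 4.97% of genes), and the E-box in 8 (29.6%, against 8.09%). Counted by window, CCAAT letters were in 24 of 35 member windows, against 37.4% of all windows. The core was in 3 of 35 and the E-box in 9 of 35, against 4.36% and 7.15%. A match is a string of letters and not evidence of binding. Variants of the letters were not searched, so a window without a match may still hold such an element. The windows shown are those of 5 sterol enzymes that differ in how double-negative cells stood (Hmgcs1, Msmo1 and Idi1 near PDPN+ cells, Cyp51 and Hsd17b7 near CD36+ cells) and of Abca1, which differed in the other direction. Capitals mark the 3 motifs on either strand, and each sequence runs 5′ to 3′ on the strand of the gene.
Hmgcs1 (chr13:119690101-119690400, plus strand): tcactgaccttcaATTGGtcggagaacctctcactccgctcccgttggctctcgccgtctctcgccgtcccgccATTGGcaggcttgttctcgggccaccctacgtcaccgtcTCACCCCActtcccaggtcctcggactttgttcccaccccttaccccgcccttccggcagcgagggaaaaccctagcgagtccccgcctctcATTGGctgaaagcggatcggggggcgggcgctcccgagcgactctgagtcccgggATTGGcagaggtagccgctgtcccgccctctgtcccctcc
Msmo1 (chr8:64733529-64733828, minus strand): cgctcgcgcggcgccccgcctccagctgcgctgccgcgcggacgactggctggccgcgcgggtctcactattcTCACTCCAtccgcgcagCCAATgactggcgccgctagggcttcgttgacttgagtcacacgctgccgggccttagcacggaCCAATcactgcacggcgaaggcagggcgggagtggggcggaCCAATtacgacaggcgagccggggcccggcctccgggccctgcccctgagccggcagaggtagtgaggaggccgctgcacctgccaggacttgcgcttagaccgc
Idi1 (chr13:8885356-8885655, plus strand): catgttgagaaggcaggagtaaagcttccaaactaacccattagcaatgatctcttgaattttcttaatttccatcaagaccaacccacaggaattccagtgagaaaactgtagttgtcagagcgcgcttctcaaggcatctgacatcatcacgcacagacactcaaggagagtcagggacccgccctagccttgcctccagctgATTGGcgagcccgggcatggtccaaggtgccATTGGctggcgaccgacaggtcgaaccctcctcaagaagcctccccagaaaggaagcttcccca
Cyp51 (chr5:4104648-4104947, minus strand): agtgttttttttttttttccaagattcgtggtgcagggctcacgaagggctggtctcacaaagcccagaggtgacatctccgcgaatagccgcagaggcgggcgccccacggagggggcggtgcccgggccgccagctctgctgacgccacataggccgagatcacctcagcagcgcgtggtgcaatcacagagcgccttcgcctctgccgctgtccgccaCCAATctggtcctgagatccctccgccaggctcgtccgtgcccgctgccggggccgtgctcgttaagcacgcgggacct
Hsd17b7 (chr1:169969156-169969455, minus strand): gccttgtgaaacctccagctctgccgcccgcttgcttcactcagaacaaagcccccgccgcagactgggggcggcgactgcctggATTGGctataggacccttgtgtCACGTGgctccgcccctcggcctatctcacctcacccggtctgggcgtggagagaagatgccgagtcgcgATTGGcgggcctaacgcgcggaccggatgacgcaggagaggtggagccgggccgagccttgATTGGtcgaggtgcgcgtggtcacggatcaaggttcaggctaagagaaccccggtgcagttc
Abca1 (chr4:53159846-53160145, minus strand): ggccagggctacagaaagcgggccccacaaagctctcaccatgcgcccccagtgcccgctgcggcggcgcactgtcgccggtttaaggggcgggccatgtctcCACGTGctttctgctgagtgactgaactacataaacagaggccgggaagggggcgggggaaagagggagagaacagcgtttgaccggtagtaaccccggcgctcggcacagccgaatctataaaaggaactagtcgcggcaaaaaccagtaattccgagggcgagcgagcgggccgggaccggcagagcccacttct
Hmgcs1 carried 1 sterol element core, 137 bases before the start, and 4 CCAAT matches, and Msmo1 carried 1 core, 177 bases before the start, and 3 CCAAT matches. Idi1 had 2 CCAAT matches, Cyp51 had 1, and Hsd17b7 had 3 beside 1 E-box. Abca1 had 1 E-box and no CCAAT match. CCAAT letters were present in all 5 sterol enzyme windows printed, as in 23 of the 27 members with a window. The printed windows were picked, and whether any motif goes with how double-negative cells stood was not tested.

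Total estimated counts lay between 51138993 and 67675778 per library, so that 3 counts corresponded to 0.0406 to 0.0594 TMM-scaled CPM (counts scaled to library size). The members together took 0.111% of the counts of CD36+ cells, 0.148% of PDPN+ cells and 0.159% of double-negative cells. Markers went against a purely epithelial label. The 7 endothelial markers (Pecam1, Cdh5, Emcn, Cd93, Tek, Egfl7 and Esam) summed to 5062 CPM in CD36+ cells, 3516 in double-negative cells and 117 in PDPN+ cells, where Tek, Egfl7 and Esam had 3 counts or fewer. The 5 basal epithelial markers (Krt5, Krt14, Krt17, Trp63 and Acta2) summed to 58.9, 229 and 5289.8 CPM in the same order, with Trp63 at 3 counts or fewer in CD36+ cells, and the 5 luminal markers to 335, 300.2 and 639 CPM. Endothelial and basal marker levels therefore moved with every comparison against PDPN+ cells, and their part in the ratios was not tested. The 5 fibroblast markers summed to 108, 51.1 and 559 CPM in the same order. Adipocyte markers summed to 2.74 to 12.6 CPM, with Adipoq, Cidec and Lep at 3 counts or fewer in each library. Immune markers summed to 1.01 to 10.4 CPM, with Adgre1 at 3 counts or fewer throughout. In bulk samples, fewer cells of a type and less RNA per cell cannot be told apart.

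Abundant genes with almost no reads in another library were common. Of 7872 genes at 10 CPM or more in PDPN+ cells, 5.74% had 3 counts or fewer in CD36+ cells and 6.11% in double-negative cells. The other 4 ordered pairs of libraries gave 3.40% to 3.99%. Among the members, Fdft1 was such a gene in CD36+ cells (against both other libraries), and Elovl4 and Fasn in double-negative cells.

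A gene was counted as higher or lower when its CPM differed 2-fold or more, with 10 CPM or more in the higher of the pair. For CD36+ against PDPN+ cells, 14 of the 27 members above this minimum were lower in CD36+ cells, where 28.1% of all 9387 genes above it were lower. In the other direction 8 of 27 were higher, against a background of 25.3%, a share near the background. Sterol enzymes made up 10 of the 14 that were lower. Restricted to genes with 10 to 100 CPM in the higher library, a range set after seeing the data, 12 of 23 members were lower and 6 higher, against 32.8% and 24.7% of genes. At 4-fold, 12 of 27 were lower and 6 higher, against 17.6% and 15.1%.

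For double-negative against PDPN+ cells, 11 of 27 members were higher in double-negative cells (background 25.4% of 9515 genes) and 7 were lower (background 30.2%), the latter near the background. At 4-fold these were 5 and 7 of 27, against 15% and 19.3%. In the range of 10 to 100 CPM they were 8 and 6 of 22, against 26.1% and 34.4%. For CD36+ against double-negative cells, 9 of 21 members were lower in CD36+ cells (background 21% of 8968 genes) and 1 was higher (background 23%). At 4-fold 5 were lower and none higher, against 12% and 12.3%, and in the range of 10 to 100 CPM 7 of 17 were lower and 1 higher, against 26.2% and 27.2%. The first and second of these comparisons share the library of PDPN+ cells, and each shares a library with the third. Mvk, Pmvk, Mvd, Tm7sf2, Nsdhl, Dhcr7 and Srebf1 stayed under 10 CPM in every library and enter none of these counts.

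**Figure D1:**
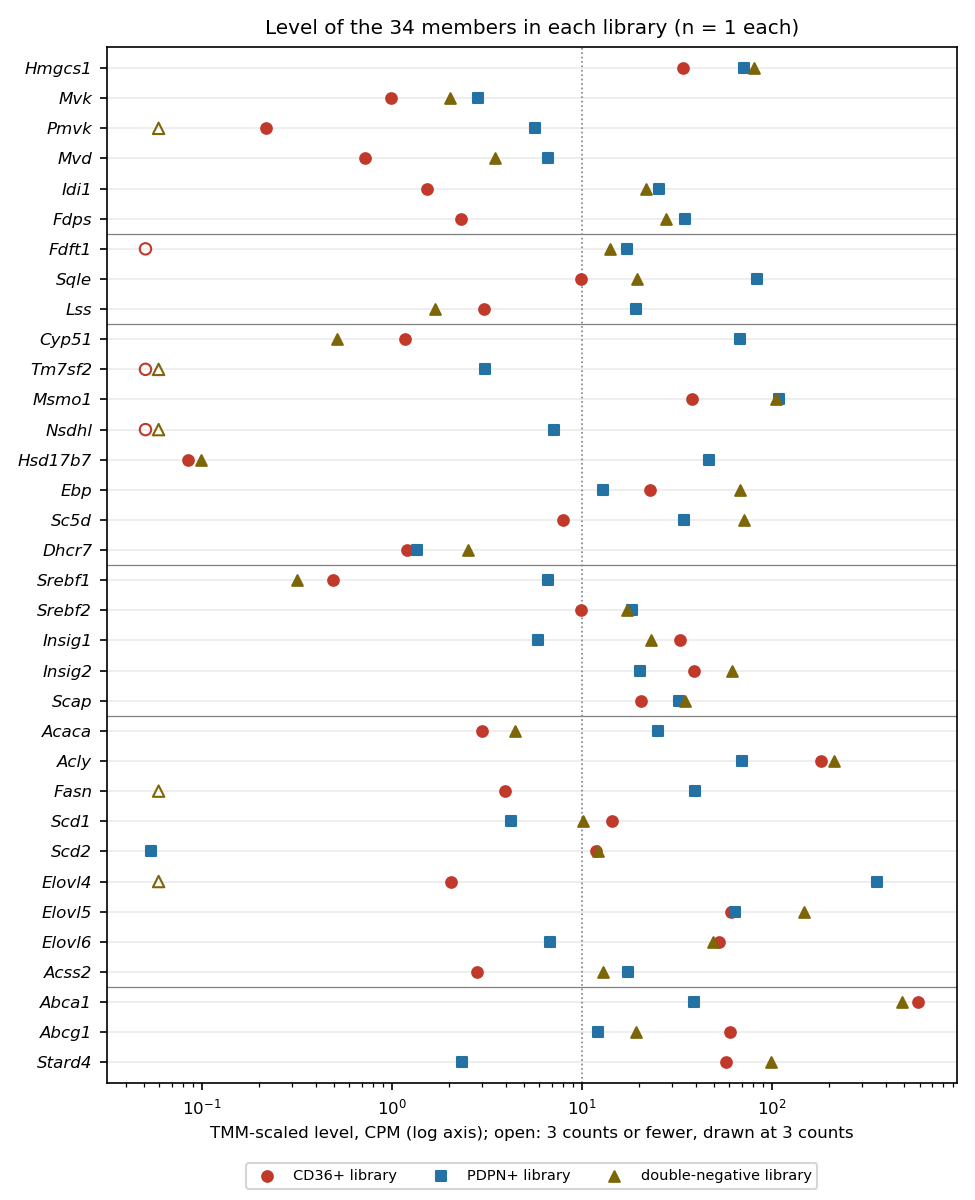
Level of each of the 34 members in the CD36+ (circles), PDPN+ (squares) and double-negative (triangles) libraries, in TMM-scaled CPM on a log axis, with 1 library per population. Open symbols stand at the level of 3 counts for genes with 3 counts or fewer, and the dotted line is 10 CPM. The PDPN+ symbol is the highest for 19 members and the lowest for 10, ranks that were not counted over all genes.

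The 17 sterol enzymes were mostly at their lowest in CD36+ cells, for 13 of 17, and at their highest in PDPN+ cells, for 13 of 17. All 17 reached 1 CPM in PDPN+ cells, 12 did in double-negative cells and 10 in CD36+ cells. Neither the ranks nor these numbers were counted over all genes, so how common they are is not known. Of the 17, 16 stood lower in CD36+ than PDPN+ cells, a number that was 15 under upper quartile scaling, and 10 of the 11 above the minimum were at least 2-fold lower, beside 28.1% of all genes (9 under upper quartile scaling, without Hmgcs1). Their median log2 ratio was -3.15 over all 17, those under the minimum included, against -0.02 over all genes above it. Against double-negative cells 7 of 8 above the minimum were at least 2-fold lower in CD36+ cells, beside 21% of all genes. The median over all 17 was -1.15, against 0.11 over all genes above the minimum. That value is the ratio of Tm7sf2, at 0 against 2 counts, so it was set by the prior count. For double-negative against PDPN+ cells 4 of 11 were lower and 2 higher, beside 30.2% and 25.4% of all genes, which is near the background. The 2 higher became 1 under total counts and by TPM. The median over all 17 was -0.48, the ratio of Mvk, which is under the minimum, against -0.11 over all genes. The deposited TPM corrects for transcript length but is not TMM-scaled. By TPM the 17 enzymes summed to 75.3 in CD36+ cells, 382 in PDPN+ cells and 267 in double-negative cells.

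In the mevalonate steps, Hmgcs1, which makes HMG-CoA, stood at 33.95 CPM in CD36+ cells, 71.2 in PDPN+ cells and 80.5 in double-negative cells. It was 2.10-fold lower in CD36+ than PDPN+ cells, with an exact 95% interval of 1.99 to 2.21. Under upper quartile scaling the log2 ratio of Hmgcs1 was -0.80, short of 2-fold. Such intervals cover counting error only. PDPN+ and double-negative cells were within 2-fold, with a direction that turned under total counts and by TPM. Idi1, the isopentenyl diphosphate isomerase, and Fdps, which makes farnesyl diphosphate, had a wider gap of the same shape. Idi1 stood at 1.54, 25.5 and 21.9 CPM in CD36+, PDPN+ and double-negative cells and was 16.6-fold lower in CD36+ than PDPN+ cells (13.4 to 20.7). Fdps stood at 2.31, 35.2 and 27.9 CPM in the same order, a 15.2-fold gap (12.8 to 18.2). For both enzymes CD36+ cells stood apart from the other pair, 14.2-fold and 12.1-fold below double-negative cells.

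The remaining mevalonate enzymes were scarce. Mvk, the mevalonate kinase, stood at 0.997, 2.85 and 2.04 CPM in CD36+, PDPN+ and double-negative cells. Mvd, the mevalonate diphosphate decarboxylase, stood at 0.726, 6.69 and 3.51 CPM, and was 9.21-fold lower in CD36+ than PDPN+ cells (6.74 to 12.9). Both were highest in PDPN+ and lowest in CD36+ cells. Pmvk, the phosphomevalonate kinase, broke that order, with 13 counts in CD36+ cells, 5.67 CPM in PDPN+ cells and 0 counts in double-negative cells, where it was at least 95.4-fold lower than in PDPN+ cells.

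The 3 squalene steps were all highest in PDPN+ cells. Fdft1, the squalene synthase (mm10 chromosome 14, 63145150 to 63179578, minus strand, GENCODE M21, as for the other genes), had 0 counts in CD36+ cells against 17.3 CPM in PDPN+ cells and 14.1 CPM in double-negative cells. It was at least 342-fold lower in CD36+ than PDPN+ cells and at least 279-fold lower than in double-negative cells. Sqle, the squalene epoxidase, a rate-controlling step, stood at 9.87, 84.1 and 19.6 CPM in CD36+, PDPN+ and double-negative cells. Both other libraries were well below PDPN+ cells for Sqle, 8.52-fold (7.83 to 9.29) and 4.29-fold (4.01 to 4.59), while their own gap of 1.99-fold was just short of the criterion (2.25-fold by TPM). Lss, the lanosterol synthase, stood at 3.06, 19.3 and 1.68 CPM, 6.30-fold lower in CD36+ cells and 11.4-fold lower in double-negative cells than in PDPN+ cells. By TPM these Lss gaps were 10.8-fold and 20.4-fold.

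After lanosterol, Cyp51, Hsd17b7, Nsdhl and Tm7sf2 were highest in PDPN+ cells, the last pair under 10 CPM even there. Cyp51, the lanosterol demethylase, stood at 1.18 CPM in CD36+ cells, 67.9 in PDPN+ cells and 0.515 in double-negative cells. Its gaps to PDPN+ cells were 57.4-fold (45.4 to 73.8) and 132-fold (89.9 to 202). Hsd17b7, a ketosteroid reductase of the demethylation complex, had 5 counts in each of CD36+ and double-negative cells against 46.9 CPM in PDPN+ cells, gaps of 555-fold (238 to 1710.0) and 473-fold (203 to 1458). Nsdhl, its partner dehydrogenase, was at 7.18 CPM in PDPN+ cells, 0 counts in CD36+ cells and 1 count in double-negative cells, the latter a gap of 363-fold (64.8 to 14345). Tm7sf2, a sterol reductase, had the same shape at 3.11 CPM, 0 counts and 2 counts. For these 4 genes the other libraries held at most 1.18 CPM.

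Msmo1, the methylsterol monooxygenase that works between Cyp51 and Nsdhl, did not follow them. It stood at 38.2, 109 and 106 CPM in CD36+, PDPN+ and double-negative cells, 2.86-fold lower in CD36+ than PDPN+ cells (2.73 to 3.003; 4.31-fold by TPM). Ebp, the sterol isomerase, was highest in double-negative cells, at 68.5 CPM against 22.9 in CD36+ cells and 13.0 in PDPN+ cells. Its excess over PDPN+ cells was 5.29-fold (4.92 to 5.69), and it was the 1 sterol enzyme that stood higher in CD36+ than PDPN+ cells, by 1.77-fold. Sc5d, the desaturase of the next step, was also highest in double-negative cells, at 71.3 CPM against 34.6 in PDPN+ cells and 7.99 in CD36+ cells. Its CD36+ level was 4.33-fold below PDPN+ cells by CPM and 10.4-fold by TPM. The double-negative excess of Sc5d over PDPN+ cells, 2.06-fold, was 1.71-fold by TPM and 0.81 on the log2 scale under total counts, so below the criterion in both. Dhcr7, which completes cholesterol in one branch, was low throughout, at 1.20, 1.37 and 2.52 CPM in CD36+, PDPN+ and double-negative cells.

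Compared per transcript length, Msmo1 had the highest TPM of the sterol enzymes in every library, with 24.0 in CD36+ cells, 103 in PDPN+ cells and 64.3 in double-negative cells. Next in PDPN+ cells came Sqle at 54.1 and Fdps at 45.4 TPM. In the other libraries it was Ebp, at 61.8 TPM in double-negative and 16.9 in CD36+ cells. Sqle stood at 17.3 TPM in double-negative cells and 7.68 in CD36+ cells. Enzymes of consecutive steps thus held unequal shares of the same library.

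**Figure D2:**
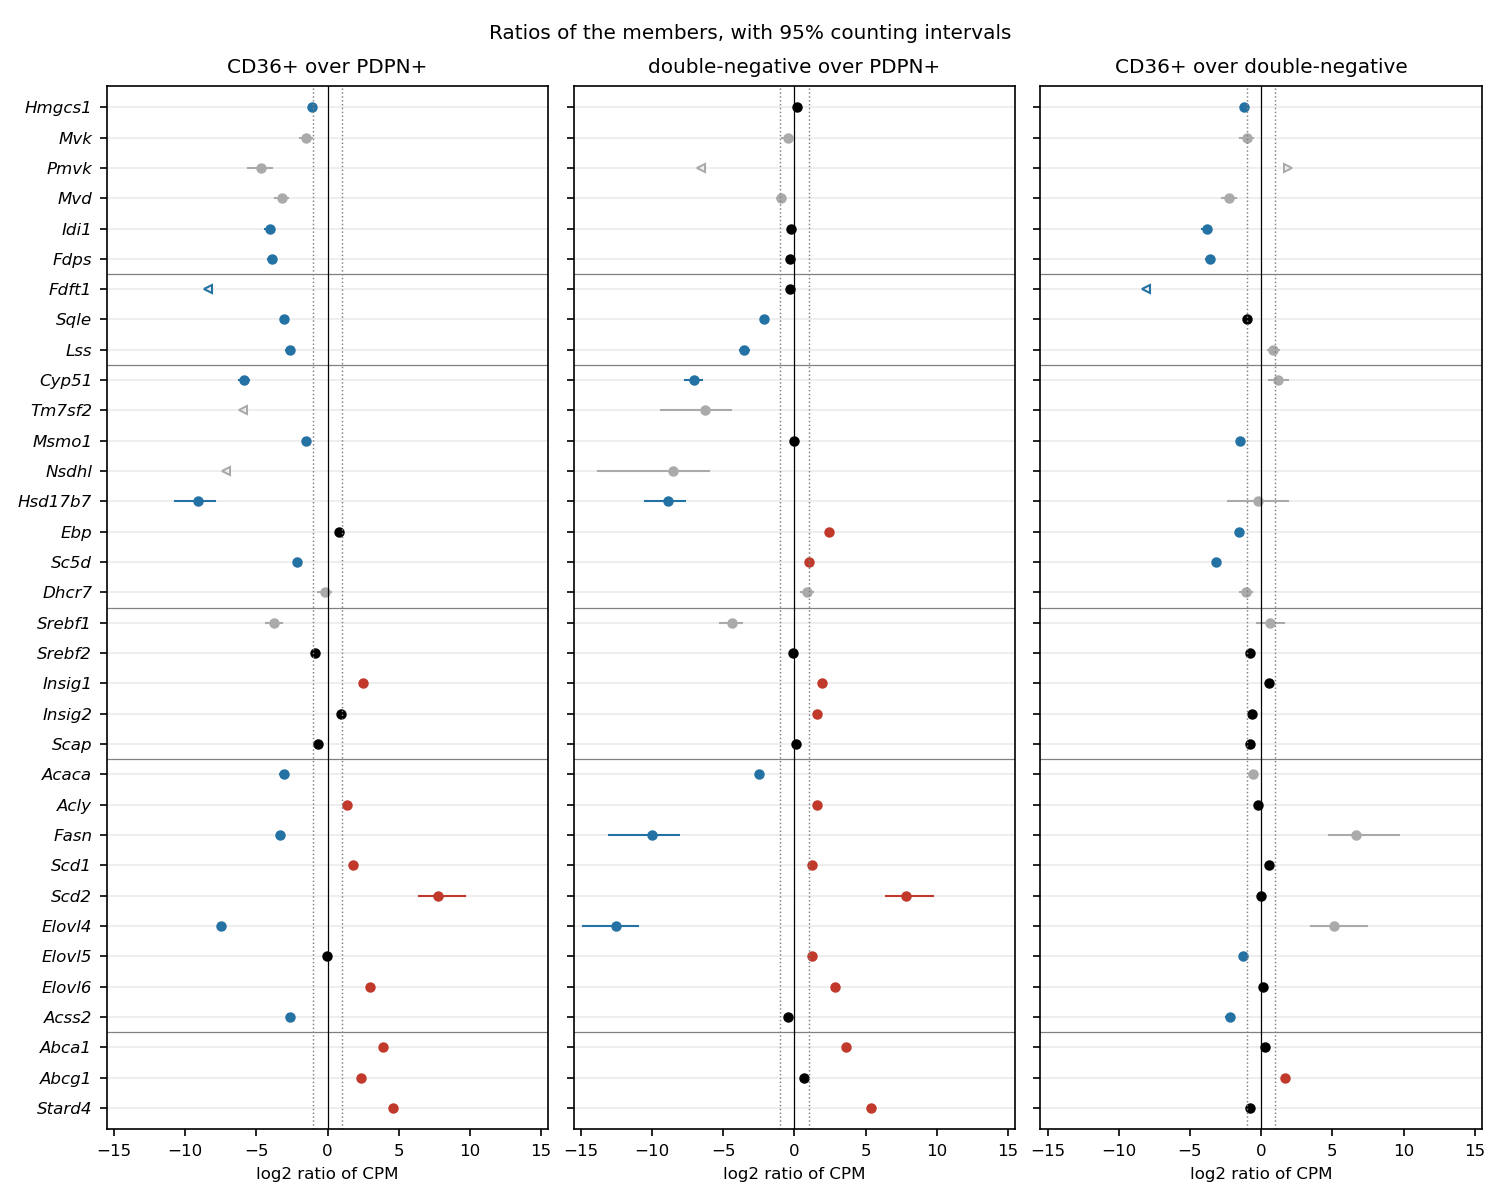
Log2 ratio of CPM for each member in the 3 comparisons, with lines for 95% counting intervals and dotted lines at 2-fold. Red and blue mark members at least 2-fold higher or lower in the first library named, black those within 2-fold, grey those under 10 CPM in both, and open triangles bounds against 0 counts; ratios with both libraries at 3 counts or fewer are left out, and 10 of 11 eligible sterol enzymes lie left of the dotted lines in the first panel.

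Among the regulators, the escort and SREBP-2 genes were within 2-fold in all pairs under TMM scaling, though not under every scaling. Srebf2, which encodes SREBP-2, stood at 9.90 CPM in CD36+ cells, 18.3 in PDPN+ cells and 17.3 in double-negative cells. Scap, the SREBP escort, stood at 20.5, 32.4 and 34.8 CPM in the same order. Scap was 2.22-fold lower in CD36+ than PDPN+ cells by TPM, and its log2 ratio was -1.06 under total counts, past 2-fold in both. Srebf2 was 1.85-fold lower in CD36+ than PDPN+ cells, with an interval of 1.68 to 2.04 that includes 2-fold. Srebf1, which encodes SREBP-1, was under the minimum everywhere, at 0.490, 6.65 and 0.317 CPM, which placed it 13.6-fold (9.34 to 20.5) and 21.0-fold (12.8 to 37.0) lower in CD36+ and double-negative cells than in PDPN+ cells.

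Insig1, an SREBP target that retains SCAP, stood on the other side. It had 33.1 CPM in CD36+ cells, 5.92 in PDPN+ cells and 23.2 in double-negative cells, and was 5.59-fold (5.04 to 6.22) and 3.91-fold (3.50 to 4.38) higher in CD36+ and double-negative cells than in PDPN+ cells. Insig2, its homologue, stood at 39.1, 20.3 and 62.1 CPM in the same order. The 3.06-fold Insig2 excess of double-negative over PDPN+ cells shrank to 1.35-fold by TPM, and the CD36+ excess, 1.93-fold by CPM, became 1.35-fold lower. Of the 5 regulators, 1 was at least 2-fold higher in CD36+ than PDPN+ cells and 2 were higher in double-negative cells, beside 25.3% and 25.4% of all genes. With TMM scaling none was at least 2-fold lower among the 4 above the minimum, which did not hold for Scap under total counts.

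Enzymes of fatty acid synthesis went both ways. Of 9 genes, 4 were at least 2-fold higher and 4 at least 2-fold lower in CD36+ than PDPN+ cells, beside 25.3% and 28.1% of all genes, with a median log2 ratio of -0.06 that became 0.21 under upper quartile scaling, against -0.02 over all genes. In double-negative cells 5 were higher and 3 lower than in PDPN+ cells, beside 25.4% and 30.2%, with a median of 1.20 against -0.11. Acly, which makes cytosolic acetyl-CoA from citrate, stood at 182 CPM in CD36+ cells, 70.2 in PDPN+ cells and 212 in double-negative cells. It was 2.60-fold (2.52 to 2.69) and 3.02-fold (2.92 to 3.13) higher than in PDPN+ cells. Under total counts the first log2 ratio of Acly was 0.97, just short of 2-fold. Acss2, which makes acetyl-CoA from acetate, had another order, at 2.82, 17.6 and 13.0 CPM, and was 6.24-fold lower in CD36+ than PDPN+ cells (5.30 to 7.37). Against double-negative cells the Acss2 gap was 4.62-fold by CPM and 2.44-fold by TPM.

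The enzymes that build the chain were higher in PDPN+ cells. Acaca, the acetyl-CoA carboxylase, stood at 2.99, 25.3 and 4.46 CPM in CD36+, PDPN+ and double-negative cells, gaps of 8.46-fold (7.25 to 9.92) and 5.67-fold (4.94 to 6.54). Fasn, the fatty acid synthase (chromosome 11, 120805846 to 120824547, minus strand), measured 3.94 CPM in CD36+ cells and 39.7 in PDPN+ cells, and had 2 counts in double-negative cells. The CD36+ library was 10.1-fold lower (8.82 to 11.6; 21.6-fold by TPM), and the double-negative gap was 1002-fold with a wide interval of 277 to 8279. Both genes were thus lower in the 2 libraries with high endothelial markers.

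The desaturases had the reverse order. Scd1, a stearoyl-CoA desaturase (chromosome 19, 44394455 to 44407879, minus strand), measured 14.5 CPM in CD36+ cells, 4.23 in PDPN+ cells and 10.1 in double-negative cells. Its excess over PDPN+ cells was 3.43-fold (3.01 to 3.92) in CD36+ cells and 2.39-fold (2.07 to 2.76) in double-negative cells, the latter 1.87-fold by TPM. Scd2 (chromosome 19, 44293674 to 44306864, plus strand) measured 11.9 and 12.2 CPM in CD36+ and double-negative cells and had 4 counts in PDPN+ cells, ratios of 220-fold (85.7 to 812) and 226-fold (87.7 to 831). Scd3 of the same family, which is not a member, had the reverse order, with 0.389, 16.4 and 1.68 CPM in CD36+, PDPN+ and double-negative cells. The Scd genes resemble each other in sequence, so their estimated counts may have been divided between them and are uncertain.

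Of the elongases, Elovl4, which extends very long chains (chromosome 9, 83778692 to 83806277, minus strand), was high in PDPN+ cells. It stood at 359 CPM in PDPN+ cells, 2.04 in CD36+ cells and 3 counts in double-negative cells, gaps of 175-fold (147 to 212) and 6035-fold (2065 to 29268). At 225 TPM, Elovl4 held most of the 333 TPM to which the 9 genes summed in PDPN+ cells. Without Elovl4, a choice made after its value was seen, the sums were 124 TPM in CD36+ cells, 107 in PDPN+ cells and 185 in double-negative cells. Elovl6, which extends saturated chains of medium length, had the opposite pattern at 52.6, 6.79 and 49.0 CPM, 7.74-fold (7.05 to 8.53) and 7.21-fold (6.55 to 7.96) above PDPN+ cells. Elovl5, an elongase of polyunsaturated chains, was highest in double-negative cells, at 147 CPM against 61.4 in CD36+ cells and 64.0 in PDPN+ cells. Its 2.30-fold excess over PDPN+ cells was 0.97 on the log2 scale under total counts, just short of 2-fold.

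**Figure D3:**
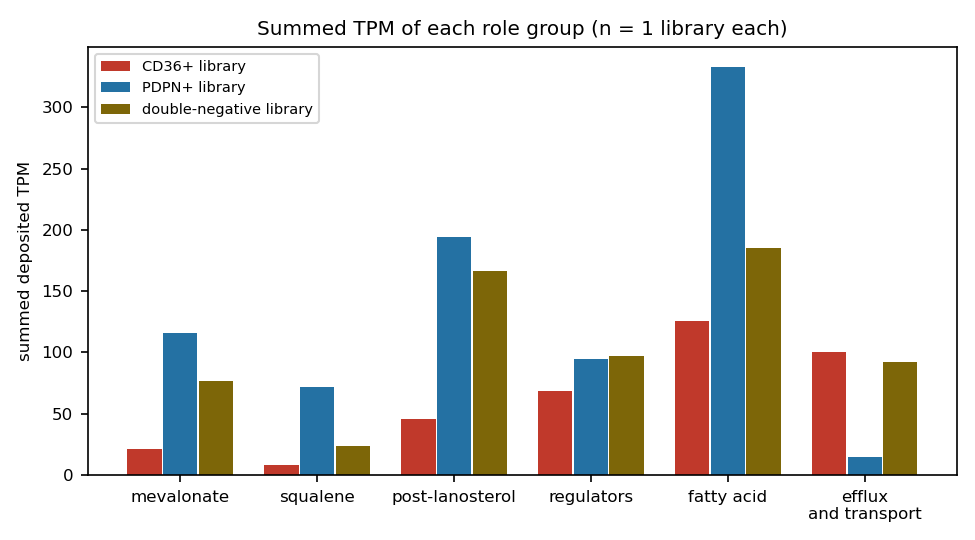
Summed deposited TPM of the members of each role group in the 3 libraries, 1 bar per library and no error bars, since each population had 1 library. The PDPN+ bar is the highest for the mevalonate, squalene, post-lanosterol and fatty acid groups (333 TPM for the last, 225 of it Elovl4), and the lowest for efflux and transport.

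The 3 genes of efflux and transport were all lowest in PDPN+ cells. Abca1, which passes cholesterol to apolipoprotein A-I (chromosome 4, 53030787 to 53159895, minus strand), measured 592 CPM in CD36+ cells, 39.3 in PDPN+ cells and 485 in double-negative cells. It was 15.1-fold (14.5 to 15.7) and 12.3-fold (11.9 to 12.8) higher than in PDPN+ cells. By TPM the excess was 10.7-fold and 9.66-fold. CD36+ and double-negative cells differed by 1.22-fold (1.20 to 1.24), and no member had a higher CPM in either of them.

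Abcg1, which passes cholesterol to lipoprotein particles, separated the 2 libraries that Abca1 did not. It stood at 60.4 CPM in CD36+ cells, 12.2 in PDPN+ cells and 19.4 in double-negative cells. Its CD36+ level was 4.97-fold (4.62 to 5.35) above PDPN+ and 3.11-fold (2.90 to 3.34) above double-negative cells, the 1 member at least 2-fold higher in CD36+ than double-negative cells. Stard4, a cytosolic sterol carrier and SREBP target, stood at 57.6, 2.35 and 99.7 CPM in CD36+, PDPN+ and double-negative cells. Its ratios to PDPN+ cells, 24.5-fold (21.0 to 28.7) and 42.4-fold (36.4 to 49.6), were 4.97-fold and 8.15-fold by TPM.

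**Figure D4:**
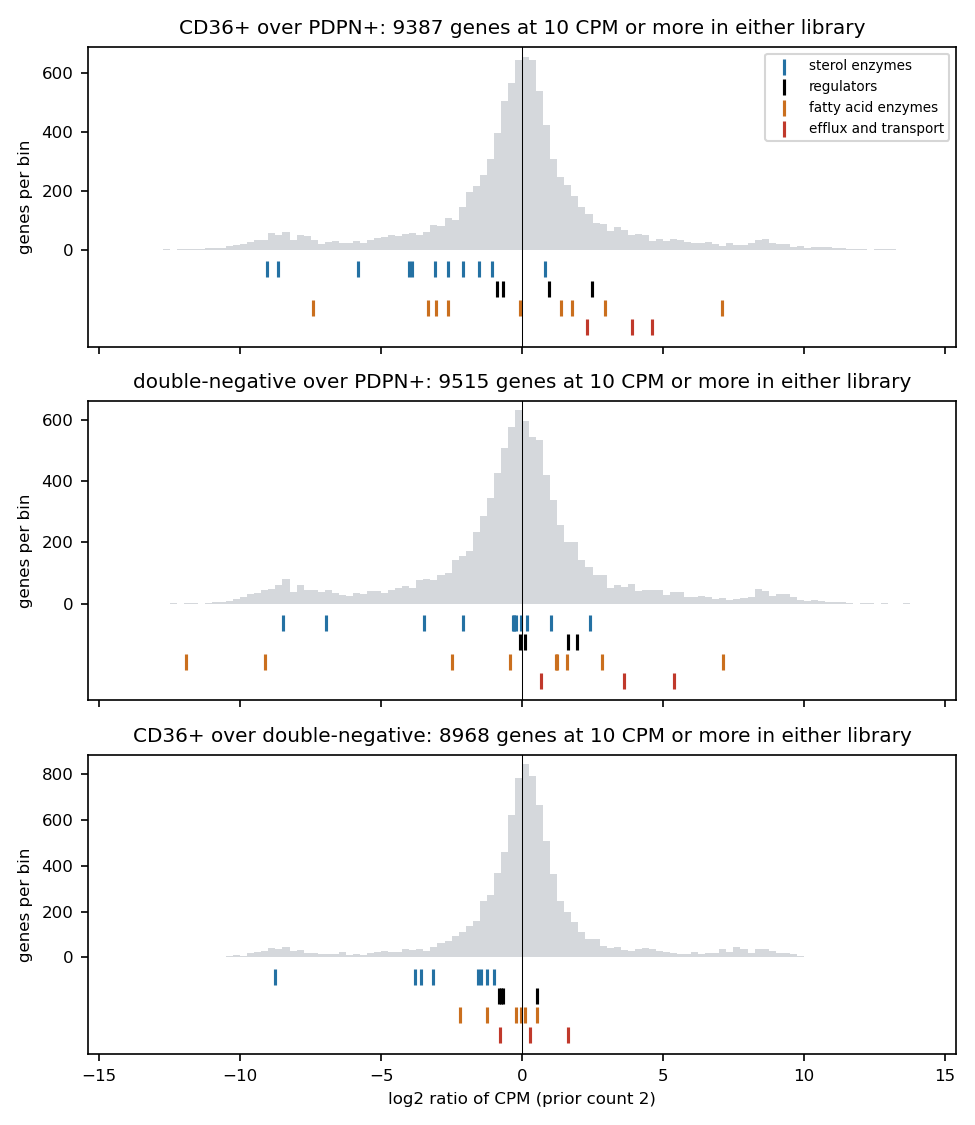
Distribution of log2 ratios (prior count 2) over all genes with at least 10 CPM in either library of each pair, in bins of 0.25, with ticks below for members that passed the same minimum. In the top panel the sterol enzyme ticks lie left of 0 except for that of Ebp, and the 3 efflux and transport ticks lie to the right.

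The pattern over all 3 libraries summarises the members. Abca1, Acly, Elovl6, Insig1, Scd1, Scd2 and Stard4 were at least 2-fold higher in both CD36+ and double-negative cells than in PDPN+ cells and within 2-fold of each other. Acaca, Cyp51, Elovl4, Fasn, Hsd17b7, Lss and Sqle were at least 2-fold lower in both. Acss2, Fdft1, Fdps, Hmgcs1, Idi1 and Msmo1 were at least 2-fold lower in CD36+ cells than in each of the others, which were within 2-fold. By TPM the Hmgcs1 gap between CD36+ and double-negative cells was 1.93-fold. As given above, the call against PDPN+ cells ended under upper quartile scaling for Hmgcs1 and, in CD36+ cells, under total counts for Acly, and in double-negative cells by TPM for Scd1. Scd1 in double-negative cells also lost its call under total counts, where its level fell just under the minimum. Of the 14 members lower in CD36+ than PDPN+ cells, the double-negative level was nearer to PDPN+ cells on the log scale for 7 and nearer to CD36+ cells for 7. Of the 8 higher in CD36+ cells it was nearer to CD36+ cells for 7, the exception being Abcg1. The same split was not counted over all genes, so whether it is particular to the members was not tested.

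Other genes of these pathways, 48 in 4 lists, were also counted. For CD36+ against PDPN+ cells, 12 of 36 above the minimum were at least 2-fold higher and 9 lower. Beside 25.3% and 28.1% of all genes, these shares are near the background. The median log2 ratio of 0.00 over the 48 was set by genes with 0 counts in both libraries. In the isoprenoid branch, which leads from farnesyl diphosphate to dolichol and quinone side chains and includes electron donors, 1 of 6 was higher and 1, Pdss1, lower. The Pdss1 gap, 3.27-fold by CPM, was 1.64-fold by TPM. Nus1, a subunit of the dolichol-forming prenyltransferase, was the higher one, at 517, 95.9 and 223 CPM in CD36+, PDPN+ and double-negative cells. Acat2, which condenses acetyl-CoA at the head of the mevalonate route, stood at 71.9, 44.0 and 71.7 CPM, and Ggps1, which makes geranylgeranyl diphosphate, at 52.1, 82.8 and 82.8 CPM. Both were within 2-fold in all pairs, unlike Fdps beside them. The electron donors Cyb5r3 and Por were low in double-negative cells, Cyb5r3 at 92.9, 87.5 and 23.9 CPM and Por at 60.8, 104 and 16.9 CPM. Pdss2, a subunit of the quinone side-chain synthase, stood at 0.760, 3.56 and 12.0 CPM, and its 15.8-fold gap between CD36+ and double-negative cells was 58.3-fold by TPM.

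Of 8 genes of SREBP processing, 1 of 7 above the minimum, Erlin2, was at least 2-fold higher in CD36+ than PDPN+ cells and none lower. Over all genes 25.3% were higher and 28.1% lower. The protease gene Mbtps2 stood at 40.5, 43.1 and 30.8 CPM in CD36+, PDPN+ and double-negative cells. The ubiquitin ligase gene Rnf139 stood at 83.1, 81.2 and 59.5 CPM. Both genes were within 2-fold in all pairs. Erlin1, which binds the SREBP-SCAP-INSIG complex, stood at 46.6, 34.7 and 57.5 CPM, whereas its homologue Erlin2 stood at 35.8 CPM in CD36+ cells, 0.798 in PDPN+ cells and 0.238 in double-negative cells.

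Genes of liver X receptors and sterol handling were at least 2-fold higher in CD36+ than PDPN+ cells for 8 of 10 above the minimum, and 1, Soat1, was lower, beside 25.3% and 28.1% of all genes. The median log2 ratio over the 12 was 1.76. By TPM Mylip, named after its value was seen, and Stard3 were under 2-fold, at 1.57-fold and 1.90-fold. For CD36+ against double-negative cells, 5 of 11 were higher and 3 lower, beside 23% and 21%. For double-negative against PDPN+ cells, 3 of 7 were higher (Ch25h, Cyp7b1 and Nr1h2) and Soat1 was lower, beside 25.4% and 30.2%. Nr1h2, which encodes LXR-beta, stood at 29.0, 7.27 and 25.6 CPM in CD36+, PDPN+ and double-negative cells. Nr1h3, which encodes LXR-alpha, stood at 12.9 and 3.99 CPM in CD36+ and PDPN+ cells and 2 counts in double-negative cells. Its partner genes followed CD36+ cells as well. Rxra stood at 14.2 CPM there, with 0 counts in PDPN+ and 2 in double-negative cells, and Rxrb at 11.4, 0.730 and 2.99 CPM. The transport genes Osbp and Stard3 were also highest there, Osbp at 55.2, 11.9 and 15.6 CPM and Stard3 at 16.2 CPM, 4.49 CPM and 0 counts. Lpcat3, a phospholipid-remodelling LXR target, stood at 45.6, 35.4 and 25.2 CPM.

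The oxysterol and ester enzymes each had an order of their own. Ch25h, the cholesterol 25-hydroxylase, stood at 186 CPM in CD36+ cells, 6.83 in PDPN+ cells and 474 in double-negative cells. Ch25h and Abca1 were both lowest in PDPN+ cells. Between the other libraries their order was opposite, with Abca1 at 592 CPM in CD36+ and 485 in double-negative cells, and a link between them was not tested. Cyp7b1, which hydroxylates oxysterols further, had 37.4 CPM in double-negative cells and 0 counts in both others. Soat1, which esterifies cholesterol for storage, had the opposite order to Ch25h for CD36+ against PDPN+ cells, at 2.74 against 142 CPM, with 61.1 CPM in double-negative cells. This Soat1 gap was 51.8-fold by CPM and 344-fold by TPM, and the mean length of the transcripts that its reads were assigned to was 8169.7 bases in CD36+ and 1727 in PDPN+ cells.

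Of 20 genes of fatty acid supply and elongation, 7 of 13 above the minimum were at least 2-fold lower in CD36+ than PDPN+ cells and 2 higher (Thrsp and Mid1ip1), beside 28.1% and 25.3% of all genes. In double-negative cells 7 of 12 were lower than in PDPN+ cells and 1, Mid1ip1, higher, beside 30.2% and 25.4%. By TPM the Mid1ip1 excess was 1.77-fold in CD36+ and 1.99-fold in double-negative cells, below the criterion in both. Pdss1 above and Mid1ip1, a lipogenic partner of acetyl-CoA carboxylase at 28.0, 11.3 and 28.9 CPM in the same order of libraries, were named after their values were seen. Acsl4, which activates arachidonate, stood at 56.3, 1292 and 216 CPM in CD36+, PDPN+ and double-negative cells. Acsl3, another acyl-CoA synthetase, stood at 30.5, 157 and 17.6 CPM, and Tecr, the reductase of the elongation cycle, at 62.2, 173 and 56.2 CPM. These 3 were highest in PDPN+ cells, as was Elovl4. Hsd17b12, the ketoreductase of the same cycle, stood at 93.4, 112 and 71.1 CPM, and Elovl1 at 55.4, 45.0 and 37.5 CPM, both within 2-fold. Thrsp, a lipogenic regulator, stood at 16.9 CPM in CD36+ cells against 6 counts in PDPN+ cells and 1 count in double-negative cells.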

How the data were processed

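Bulk RNA sequencing measured RNA abundance in 3 cell populations, 1 library each, grouped by the labels. Per the labels' protocols, low-input libraries and ribosomal-RNA-depleted stranded libraries were both used in the study, on more than one instrument model. No label ties a kit to a library, so kit and population cannot be told apart. Per the submitters' processing notes, the authors used Salmon 0.9.1 and the mm10 build. The authors deposited estimated counts per gene, not normalized, and TPM, corrected for effective length. Per the file headers, length columns stand beside them. Annotation release, strand setting and filters are not given in these sources. Without strand, reads of overlapping genes cannot be told apart.

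Estimated counts were rounded and scaled with TMM factors over all 3 libraries (edgeR 4.0.16, R 4.3.3). Levels are CPM. Log2 ratios used a prior count of 2. Intervals are exact 95% Clopper-Pearson intervals, and a fold against 0 counts used a floor of 3 counts per library. Symbols came from a reference table of gene identifiers (52566 of 52661 matched), and gene coordinates from GENCODE M21 on mm10. Promoters came from RefSeq. Python 3.11.15, numpy 2.4.6, pandas 2.3.3, scipy 1.17.1 and matplotlib 3.10.9 were used. The ratio code and TMM scaling were tested on simulated counts. Alternatives were total counts, upper quartile and relative log expression scaling, TPM (pseudocount 0.05 on the log2 scale), a minimum of 1 CPM, no minimum, and a prior count of 0.5.

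The members and the gene lists were chosen with earlier results of these data known. All 34 members are named. Of the other pathway genes, the text names the 4 per list with the highest mean TPM and those at least 4-fold apart in any pair with at least 10 CPM in the higher library. One gene that this rule would name is not reported here.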

Additional observations from a re-analysis of the deposited data

How the results depend on the processing

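With 1 library per population, no result could be checked by leaving out a replicate, and no paired analysis was possible because each group holds a single library. The 6 counts of members at least 2-fold apart stayed within 1.5 times their value under every scaling, by TPM, with a prior count of 0.5 and in the added range of 10 to 100 CPM. The minimum level mattered more. With a minimum of 1 CPM or none, 20 members were lower in CD36+ than PDPN+ cells in place of 14. With a minimum of 1 CPM, 11 members were lower in double-negative than PDPN+ cells in place of 7, and 4 were higher in CD36+ than double-negative cells in place of 1. With no minimum these 2 numbers were 11 and 5. Members lower in CD36+ than double-negative cells numbered 12 with a minimum of 1 CPM and 14 with none, in place of 9. These additions are genes under 10 CPM.

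No member counted as apart changed direction under any scaling, by TPM or with the other prior count. Ratios within 2-fold did so for Insig2 (TPM, from 1.93-fold higher to 1.35-fold lower) and for Dhcr7 and Elovl5 (upper quartile) in the first comparison. In the second they did so for Hmgcs1 and Scap (total counts, TPM) and for Idi1, Msmo1 and Srebf2 (upper quartile), and in the third for Elovl6 (total counts). Total counts moved the median log2 ratio of all genes by -0.40, -0.23 and -0.17 in the 3 comparisons, and upper quartile scaling by 0.27, 0.28 and -0.01. TPM, which is not TMM-scaled, moved it by -0.48, -0.36 and -0.13. TPM ratios therefore differ from CPM ratios by more than transcript length. Of the genes at least 2-fold apart for CD36+ against PDPN+ cells, 47.4% were higher in CD36+ cells with TMM, 33.9% with total counts, 57.5% with upper quartile scaling and 34.5% by TPM. For double-negative against PDPN+ cells these shares were 45.7%, 37.6%, 56.2% and 36.7%.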

Other observations

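The ratio of estimated counts to TPM gives the mean effective length of the transcripts to which the reads of a gene were assigned, and this length was not the same in all libraries for several members. It was scaled on genes with 1 annotated transcript (2302 to 2706 genes per library, whose 10th and 90th percentiles lay at most 1.0013-fold from the median) and computed for genes with at least 100 counts. Abca1, Abcg1, Insig1 and Scd1 differed at most 1.004-fold in length between the 3 libraries, with 10071 to 10083 bases for Abca1. Stard4 reads were assigned to transcripts of 1084 bases on average in PDPN+ cells, against 3799 bases in CD36+ cells and 4409.6 in double-negative cells. Its 174 counts in PDPN+ cells are few, and the smaller Stard4 ratio by TPM goes with this difference. Acss2 had the largest length difference after Stard4 among members measured in all 3 libraries, with 1495 bases in CD36+ cells, 2761 in PDPN+ cells and 3112 in double-negative cells. Sqle reads fell on longer transcripts in PDPN+ cells (2402 bases) than in the CD36+ (1413) and double-negative (1373) libraries. Acaca showed the same order at 8109, 4983 and 4538 bases. Srebf2 had 3604 bases in PDPN+ cells, 3186 in double-negative cells and 1858 in CD36+ cells. Sc5d had 4599 bases in CD36+ cells against 2679 and 2517 in PDPN+ and double-negative cells, and Insig2 had 738 bases in PDPN+ cells against 1369 and 1312 in CD36+ and double-negative cells. No transcript-level values were analysed here, and library chemistry and population cannot be told apart.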
